A study of Mus musculus with 8 samples.

Results

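Thymic group 2 innate lymphoid cells (ILC2) carrying an inducible form of the transcription factor E47 were compared with cells carrying only a marker, after 16 h of 4-hydroxytamoxifen. The comparison used 4 of the study's 8 RNA sequencing libraries, which were taken by their labels alone: 2 of cells with GFP and E47-ER and 2 of cells with GFP alone, all given the drug for 16 h. The cells were taken from plck-Id1 mice on the C57BL/6 background, thymus being the tissue, so the GFP controls carried the transgene too. They had been infected with the MIGR1 retroviral vector, sorted for GFP and expanded with IL-7, IL-25, IL-33 and a factor that the series text writes as "ILC2". The other 4 libraries, 2 of each kind at 4 h, served to estimate the spread and to give the earlier levels. No E47-ER library without the drug was included, so differences that existed before the drug was given and responses to the drug cannot be told apart. The labels do not say whether the replicates were separate mice or cultures, and p-values here measure only the spread between libraries, which may be technical.

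E proteins are basic helix-loop-helix transcription factors that bind short DNA sites called E boxes, and E47 is a product of the gene Tcf3. Id proteins pair with E proteins and keep them from binding DNA, and the Id1 transgene, driven by a promoter of the T cell kinase gene Lck, was made to do so in thymocytes. In the thymus E proteins favour the T cell fate, and ILC2 expand where they are blocked. A fusion with the estrogen receptor (ER) is held inactive until tamoxifen is bound, so that the drug releases E47 in cells that otherwise contain Id proteins.

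The 4 libraries at 16 h held between 8813782 and 16982013 counts. Replicate 2 of GFP at 16 h was the smallest and stood apart. The median absolute log2 difference between the GFP replicates was 0.457, against 0.126 between the E47-ER replicates. Short transcripts took a larger share of that library, and values are therefore also given against GFP replicate 1 alone, on the assumption that a lone library varies as those of the other groups do. The defining ILC2 markers were abundant in all 4: Il1rl1, the IL-33 receptor, lay between 1667 and 2063 CPM (counts scaled to a common library size) and Gata3, the ILC2 and T cell regulator, between 885 and 1479.8 CPM. No count of Rag1, Rag2, Cd8b1, Lyz2, Ncr1, Tbx21, Krt14 or Foxn1 was found in any of the 4 libraries at 16 h, and Cd8a, Cd4 and Cd5 stayed under 1 CPM. These genes were picked from lists whose other members had reads. The NK and ILC1 list summed to between 25369 and 33800 CPM and the thymic stroma list to between 144 and 210 CPM. The list of proximal T cell receptor signalling and T cell surface genes summed to between 1613 and 1969 CPM. The list of myeloid and mast cell markers differed in replicate 2 of GFP, where its 29 genes summed to 333 CPM against 119 to 140 CPM in the other 3, most of it from Mcpt8 and Xcr1. That library's part in the results was tested only by leaving it out. Fewer cells of a type and less RNA per cell cannot be told apart in such pooled cells.

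The construct was visible in the labelled libraries. Esr1, the estrogen receptor gene, stood at 0.537 and 0.932 CPM with GFP and at 43.8 and 54.5 CPM with E47-ER. Tcf3 stood at 87.6 and 67.6 CPM and 146 and 169.9 CPM (log2 fold change 1.02, adjusted p = 0.0238 in the edgeR fit of all 8 libraries, and 0.84 against GFP replicate 1 alone). Reads of the construct and of the cells' own genes cannot be told apart, and both genes, being called, stand in the counts below. Id1 had 30.03 and 13.8 CPM with GFP and 81.4 and 67.6 CPM with E47-ER, and missed the threshold with all libraries (log2 fold change 1.73, adjusted p = 0.0551, and 1.3 with adjusted p = 0.0205 against GFP replicate 1 alone). Its reads include any from the transgene. Lck, whose promoter drives that transgene, was itself higher with E47-ER, as given below, and the part of the transgene in the Id1 values was not tested.

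Of 13644 genes tested, 171 were higher with E47-ER at an adjusted p under 0.05, which is 1.25% of those tested, and 46 were lower, which is 0.337%. Against GFP replicate 1 alone, 617 genes (4.52%) were higher and 630 (4.62%) were lower. Called in both fits were 170 higher genes and all 46 lower genes. They make up 99.4% of the higher calls with all libraries but 27.6% of those against replicate 1 alone, and of the lower calls 100% and 7.30%. The counts depended on each library: without GFP replicate 1 at 16 h 3352 genes were higher and 3476 lower, without E47-ER replicate 1 or 2 at 16 h 26 or 14 were higher and 0 lower, and without any 1 library of 4 h 50 to 59 were higher and 3 lower. The higher genes were also the ones with the larger differences. Of the 171, 127 differed by over 2-fold, 52 by over 4-fold and 22 by over 8-fold, whereas 30 of the 46 lower genes passed 2-fold, 4 passed 4-fold and 0 passed 8-fold. The median log2 fold change was 1.40 among the higher and -1.24 among the lower genes, and -0.01 over all genes tested.

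**Figure D1:**
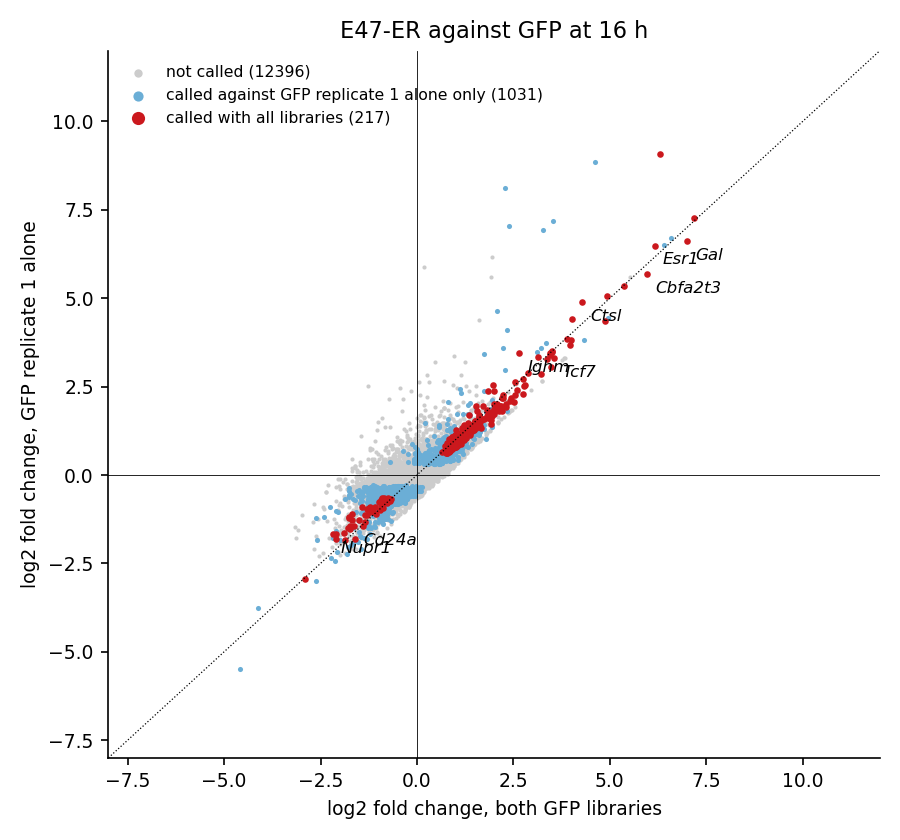
Log2 fold change of E47-ER against GFP at 16 h for each of the 13644 genes tested, with both GFP libraries (x axis) and against GFP replicate 1 alone (y axis). Red points are the 217 genes called with all libraries, blue points the 1031 called only against replicate 1 alone, and the dotted line marks equal values. The red points lie near the line, and the called genes with the largest differences are on the higher side.

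Several of the genes with the largest differences were nearly silent in GFP cells. In what follows, pairs of values are CPM in replicates 1 and 2, and fold changes are log2 with both GFP libraries and then against GFP replicate 1 alone. Counts of called list members are to be read beside the shares over all genes, given above for each fit. With all libraries these were 1.25% higher and 0.337% lower, so a single called member says little about its list. Gal, which encodes the neuropeptide galanin (ENSMUSG00000024907, chromosome 19, 3409915 to 3414544, GRCm38), had 0.403 and 0.133 CPM with GFP and 44.5 and 37.1 with E47-ER. These are 6 and 1 counts against 666 and 642, and the groups lay far apart (7.0, SE 0.45, adjusted p = 0.00179, and 6.62). Cbfa2t3, a corepressor of the ETO family that binds E proteins (ENSMUSG00000006362, chromosome 8, 122625141 to 122699109), had 0.269 and 0.133 against 15.8 and 12.9 CPM (5.96, SE 0.36, adjusted p = 0.000556, and 5.69). For both genes the GFP level is near the floor of 0.134 CPM, which stands for 3 counts in the GFP libraries together, and the fold is loosely known. Ctsl, which encodes cathepsin L, a protease of lysosomes (ENSMUSG00000021477, chromosome 13, 64359337 to 64370890), was the most abundant of this set, at 26.9 and 56.7 CPM with GFP and 820.4 and 776 CPM with E47-ER (4.27, SE 0.35, adjusted p = 0.00228, and 4.88). Both E47-ER libraries lay over 10-fold above either GFP library.

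A gene was called in all 8 fits that each left out 1 library in 14 cases, all of them higher. Apart from Esr1 these were Gal, Cbfa2t3, Ctsl, Cdk20, Snai3, Crispld2, Lrrc32, Spsb1, Lgals9, Kifc3, Wnt10b, Ccn4 and Olfr523. Snai3, a zinc finger repressor gene of the Snail family (ENSMUSG00000006587, chromosome 8, 122454208 to 122460733), had 1.68 and 1.6 against 18 and 17.9 CPM (3.44, SE 0.21, adjusted p = 0.000556, and 3.41). Cdk20, a kinase of the cyclin-dependent family (chromosome 13, 64432314 to 64441773), had 1.61 and 1.46 against 24.7 and 22 CPM (3.9, SE 0.22, adjusted p = 0.000556, and 3.84). The replicates of each group were close together in both genes, and the values against replicate 1 alone were nearly the same. Crispld2, which encodes a secreted protein (chromosome 8, 119992438 to 120052793), had 15.7 and 8.39 against 114 and 115 CPM (3.21, SE 0.29, adjusted p = 0.00286, and 2.86). Lgals9, the gene of the sugar-binding protein galectin-9 (chromosome 11, 78962974 to 78984946), was already high in GFP cells, at 159 and 163 CPM, and stood at 480.3 and 436 CPM with E47-ER (1.51, SE 0.13, adjusted p = 0.00228, and 1.52).

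**Figure D2:**
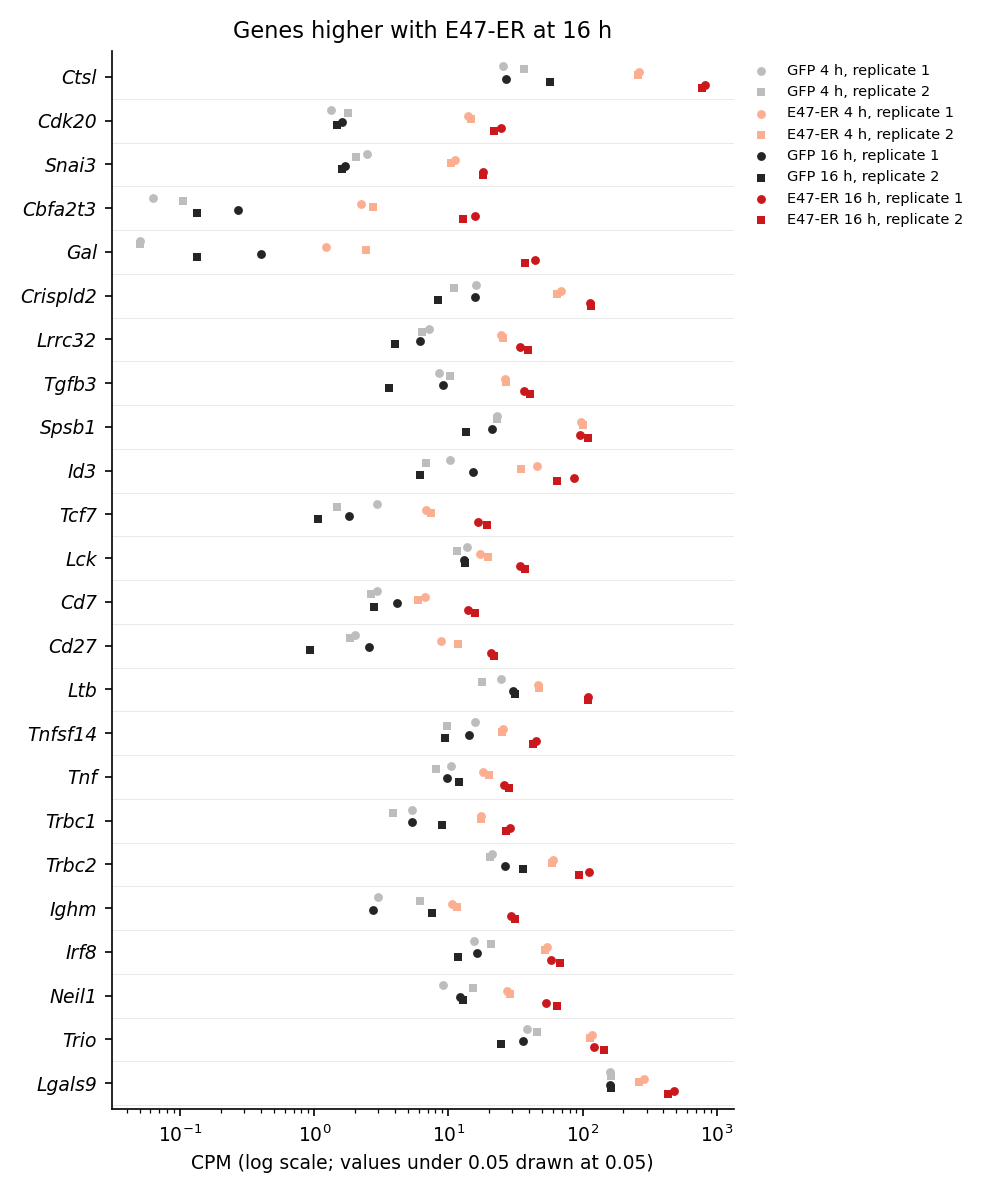
CPM of 24 genes called higher with E47-ER at 16 h, on a log axis, with 1 point per library for all 8 libraries (circles replicate 1, squares replicate 2). In each gene both red points (E47-ER at 16 h) lie to the right of both black points (GFP at 16 h), and most pale red points (E47-ER at 4 h) lie between them.

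Among the genes of E proteins and their partners, 2 of 10 tested members were higher and 0 lower (6 and 1 against replicate 1 alone), the construct gene Tcf3 and Id3. Id3, which encodes an inhibitor of E proteins and is a known target of them (ENSMUSG00000007872, chromosome 4, 136143497 to 136145755), had 15.2 and 6.13 CPM with GFP and 85.7 and 63.9 with E47-ER (2.75, SE 0.39, adjusted p = 0.0171, and 2.28). The GFP values differed by over 2-fold and did not reach the E47-ER values. Id2, the Id protein that ILC2 depend on, had 824 and 1315 against 1848 and 1742 CPM. It missed the threshold with all libraries (0.75, adjusted p = 0.127 by edgeR, and 1.12 against replicate 1 alone). With a term for exon length in the edgeR fit of all libraries it passed (0.92, adjusted p = 0.0219). Tcf4, another E protein gene, had 48 and 47.8 against 37.4 and 33.8 CPM and was called lower only against replicate 1 alone (log2 fold change -0.44).

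Of the transcription factors of the T lineage, 2 of 22 were higher and 0 lower (7 and 1 against replicate 1 alone). Tcf7, which encodes the T cell and early ILC factor TCF-1 (ENSMUSG00000000782, chromosome 11, 52252371 to 52283014), had 1.81 and 1.07 against 16.7 and 19.2 CPM (3.55, SE 0.35, adjusted p = 0.00414, and 3.3). Tox2, of the TOX family, had 71.3 and 71.6 against 126 and 133 CPM (0.86, SE 0.12, adjusted p = 0.0141, and 0.86). The TCF-1 relative Lef1 stood at 6.38 and 8.12 against 7.28 and 7.45 CPM (0.04, adjusted p = 0.915), and the values of Bcl11b, which holds T cell and ILC2 identity, were 156 and 147 against 202 and 217 CPM (0.47, adjusted p = 0.132, and 0.42, adjusted p = 0.0179, against replicate 1 alone). Myb, a regulator of immature lymphocytes, was called lower only against replicate 1 alone, at 57.4 and 43.8 against 33.4 and 30.1 CPM (log2 fold change -0.86). Bach2, a repressor that restrains effector genes, had 0 counts in GFP replicate 1 but 1.2 CPM in replicate 2, against 2.27 and 2.08 CPM (2.28, adjusted p = 0.209). It was called higher against replicate 1 alone (adjusted p = 0.000524), where the fold over 0 counts has no interpretable size.

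Constant region genes of the T cell receptor were higher with E47-ER, while the recombinase genes Rag1 and Rag2 had no counts. Of 12 tested genes of receptor chains and recombination, 4 were higher and 0 lower (6 and 0 against replicate 1 alone), and the groups did not overlap upward in 11 of 12, against 27.8% of all genes upward and 26.6% downward. Trbc2, a constant region of the T cell receptor beta chain (chromosome 6, 41546730 to 41548352), had 26.3 and 36.2 against 111 and 94.2 CPM (1.72, SE 0.18, adjusted p = 0.00458, and 1.95), and Trbc1 had 5.31 and 8.92 against 28.7 and 26.7 CPM (2.0, SE 0.26, adjusted p = 0.012, and 2.38). These constant regions are near-identical copies, so their reads may have been split between them. Trdc, the delta chain constant region, had 115 and 125 against 214 and 219 CPM (0.85, SE 0.12, adjusted p = 0.0189, and 0.91), and Tcrg-C1, of the gamma chain, 59.5 and 65.5 against 124 and 105 CPM (0.87, SE 0.16, adjusted p = 0.0429, and 0.93). Trdc overlaps exons of 2 other tested genes, and Tcrg-C1 belongs to a family of similar genes. Trac, of the alpha chain, stayed low at 2.62 and 3.86 and 4.41 and 3.92 CPM, and so did Cd3d, of the CD3 complex, at 0.739 and 2.26 and 0.801 and 0.693 CPM, while Cd3e of the same complex had 26 and 28 against 33.9 and 38.3 CPM (0.42, adjusted p = 0.147).

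The proximal signalling and surface genes of T cells had 3 of 19 members higher and 0 lower (6 and 0 against replicate 1 alone). Lck, the kinase that starts T cell receptor signalling (ENSMUSG00000000409, chromosome 4, 129548344 to 129573641), had 13.1 and 13.2 against 34.1 and 37.5 CPM (1.44, SE 0.16, adjusted p = 0.00646, and 1.44). Cd7, a surface glycoprotein of T and NK cells (chromosome 11, 121036747 to 121039418), had 4.1 and 2.8 against 14 and 15.8 CPM (2.07, SE 0.23, adjusted p = 0.00631, and 1.85), and the Tec family kinase gene Txk 4.7 and 3.99 against 8.48 and 10.6 CPM (1.12, SE 0.21, adjusted p = 0.0479, and 1.02). In the 3 genes the groups did not overlap, which held in the same direction for 27.8% of all genes tested. Zap70, the next kinase of the pathway, had 239 and 248 against 230.3 and 253 CPM (-0.01, adjusted p = 0.961). Of the B lineage list 3 of 19 genes passed the filter on low counts, and 1 of them was called, the immunoglobulin mu gene Ighm, at 2.75 and 7.59 against 29.4 and 31.3 CPM (2.65, SE 0.45, adjusted p = 0.0305, and 3.45). The B cell genes Pax5, Igkc and Ms4a1 stayed under 1 CPM in all 4 libraries. The whole list of 19 summed to 27.9 and 33.7 CPM with GFP and to 52.8 and 54.2 CPM with E47-ER. Lists for other cells gave 25369 and 33341 CPM with GFP for the 21 NK and ILC1 genes in the table, nearly all from the granzyme genes Gzma and Gzmb, against 30978 and 33800 CPM with E47-ER, and 173 and 144 against 194 and 210.0 CPM for the 16 thymic stroma genes. The ILC3 list lay between 1279 and 1812 CPM and the erythroid list between 195 and 275 CPM. The part of such cells in the results was not tested.

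Genes of secreted and surface ligands were among the higher ones. Of 10 tested TNF family ligand genes 3 were higher and 0 lower (4 and 0 against replicate 1 alone). Ltb, a lymphotoxin subunit (ENSMUSG00000024399, chromosome 17, 35194439 to 35196320), had 30.3 and 31.6 against 109 and 111 CPM (1.83, SE 0.17, adjusted p = 0.00286, and 1.85), Tnfsf14, also known as LIGHT, 14.2 and 9.45 against 44.7 and 42.5 CPM (1.85, SE 0.26, adjusted p = 0.0168, and 1.61), and the inflammatory cytokine gene Tnf 9.74 and 12 against 25.9 and 28.3 CPM (1.33, SE 0.19, adjusted p = 0.0171, and 1.47). Lta, which pairs with Ltb, had 13.1 and 10.4 against 21.2 and 18.6 CPM and was not called in either fit. Of 17 TNF receptor genes 1 was higher and 0 lower (2 and 0 against replicate 1 alone). It was the costimulatory receptor gene Cd27 (chromosome 6, 125232622 to 125237010), at 2.55 and 0.932 against 20.9 and 21.8 CPM (3.47, SE 0.34, adjusted p = 0.00414, and 3.05). In a separate list of 18 tested genes of type 2 and other cytokines, 1 was called with all libraries, the neuropeptide gene Gal.

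The TGF-beta list had 3 of 24 members higher and 0 lower (5 and 0 against replicate 1 alone), and they encode a ligand, a protein that docks it and a receptor. Tgfb3, a ligand (chromosome 12, 86056745 to 86079041), had 9.14 and 3.6 against 36.3 and 40.8 CPM (2.52, SE 0.33, adjusted p = 0.0132, and 2.07). Lrrc32, also called GARP, which holds latent TGF-beta at the cell surface (chromosome 7, 98489283 to 98502181), had 6.18 and 3.99 against 34.1 and 38.8 CPM (2.79, SE 0.21, adjusted p = 0.00179, and 2.55), and the receptor gene Tgfbr2 257 and 171 against 444 and 508 CPM (1.15, SE 0.20, adjusted p = 0.0312, and 0.88). GFP replicate 2 was the lowest library in the 3 genes, and the differences were smaller against replicate 1 alone. Itgae, the alpha chain of an integrin that TGF-beta induces, had 156 and 114 against 257 and 311 CPM (1.07, SE 0.17, adjusted p = 0.0271, and 0.86). Over its whole list of adhesion genes, 4 of 30 were higher and 1, Cd24a, was lower (7 and 3 against replicate 1 alone). The other 3 higher ones were Epcam, an adhesion gene of epithelia and some lymphocytes (5.98 and 8.79 against 22.2 and 20.4 CPM, 1.56, SE 0.26, adjusted p = 0.0285, and 1.82), and the semaphorin genes Sema7a (25.7 and 24.8 against 43.5 and 56.4 CPM, 0.98, SE 0.16, adjusted p = 0.0275, and 0.95) and Sema6d (4.63 and 2.13 against 17.7 and 17.9 CPM, 2.31, SE 0.32, adjusted p = 0.0149, and 1.93). Epcam was the 1 called member of the 4 thymic stroma genes tested.

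Chemokine and migration receptors had 4 of 23 tested members higher and 0 lower, and 10 and 2 against replicate 1 alone. Ccr2, an abundant receptor gene, had 552 and 711 against 1124 and 1140.3 CPM (0.84, SE 0.16, adjusted p = 0.0422, and 1.03) and Ccr8 25.7 and 19.6 against 58.7 and 59.97 CPM (1.38, SE 0.15, adjusted p = 0.00635, and 1.2). P2ry14, a receptor for UDP-sugars, had 79.8 and 89.2 against 157 and 168 CPM (0.94, SE 0.13, adjusted p = 0.0171, and 1.02). Ccr9, a gut and thymus homing receptor gene, was low throughout, at 0.269 and 0.266 against 2.0 and 1.67 CPM (2.74, SE 0.47, adjusted p = 0.0312, and 2.73), and the called gene Lztfl1 lies within its span on the other strand with no shared exon. Ccr7 and S1pr1, both needed for recirculation through lymph nodes, had 31.9 and 22.4 against 15 and 12.6 CPM and 13.6 and 7.86 against 6.88 and 6.35 CPM. They were not called with all libraries and were the 2 lower calls against replicate 1 alone (log2 fold changes -1.22 and -1.05). Among glycan synthesis genes 4 of 26 were higher and 0 lower (7 and 1 against replicate 1 alone). They were St8sia1, which makes the ganglioside GD3 (3.49 and 3.73 against 14.6 and 13.9 CPM, 1.99, SE 0.22, adjusted p = 0.00596, and 2.02), the sialyltransferase gene St6gal1 (1.7, SE 0.28, adjusted p = 0.0271, and 1.59), B3gnt7 (1.61, SE 0.26, adjusted p = 0.0257, and 1.68) and Ugcg, which starts glycosphingolipid synthesis (0.70, SE 0.12, adjusted p = 0.0355, and 0.68).

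A list of signalling feedback genes held SOCS and SPSB genes and others. Of its 20 tested members 2 were higher and 0 lower with all libraries (median log2 fold change 0.10, and 0.15 against replicate 1 alone). Spsb1 (chromosome 4, 149896283 to 149955043) had 21 and 13.4 against 95.8 and 109 CPM (2.55, SE 0.21, adjusted p = 0.00228, and 2.28). The other was Ptprc, which is of neither family and encodes the phosphatase CD45, at 665 and 655 against 997 and 1089 CPM (0.66, SE 0.13, adjusted p = 0.0467, and 0.64). Of 23 costimulatory and inhibitory genes 2 were called with all libraries, Vsir and Cd101, both of inhibitory receptors. Vsir, also called VISTA, had 90.01 and 84.3 against 224 and 232 CPM (1.39, SE 0.13, adjusted p = 0.00286, and 1.33). Cd101 had 1.54 and 1.46 against 6.54 and 7.56 CPM (2.22, SE 0.27, adjusted p = 0.00904, and 2.18). Of 17 BCL2 family genes 1 was called with all libraries, Bcl2l11, which encodes the cell death protein BIM. It had 42.9 and 54.5 against 88.5 and 94.3 CPM (0.91, SE 0.16, adjusted p = 0.0337, and 1.08). Of 21 Notch pathway genes 1 was called with all libraries, Nrarp, a feedback inhibitor of Notch signalling. It had 2.96 and 3.06 against 8.21 and 8.83 CPM (1.5, SE 0.23, adjusted p = 0.0218, and 1.52). Hes1, the classic Notch target, had 6.85 and 13.4 against 23.4 and 21.9 CPM and passed the threshold only against replicate 1 alone (1.2, adjusted p = 0.146, and 1.72, adjusted p = 0.0228). Notch1 had 145 and 64.8 against 136 and 164 CPM, with the lowest of the 4 values in GFP replicate 2.

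Lysosomal proteases went in different directions. Of 30 genes of cathepsins and lysosomes 2 were higher and 2 lower (5 and 3 against replicate 1 alone). Beside Ctsl, Ctse, which encodes the aspartic protease cathepsin E, was higher, at 1.61 and 1.07 against 5.61 and 7.04 CPM (2.18, SE 0.31, adjusted p = 0.0171, and 1.96). Lgmn, the asparaginyl endopeptidase legumain, was lower, at 215 and 297 against 139 and 134 CPM (-0.91, SE 0.17, adjusted p = 0.046, and -0.66), and so was the protease inhibitor gene Slpi, given below. Of 25 NF-kB pathway genes 1 was higher, the kinase gene Map3k8, at 49.6 and 43.3 against 84.1 and 81.3 CPM (0.83, SE 0.13, adjusted p = 0.0238, and 0.73), and 4 were against replicate 1 alone. Of 17 lipid mediator and arginine genes 0 were called with all libraries and 6 were higher against replicate 1 alone. Among the 6 were Alox5, which starts leukotriene synthesis (8.8 and 7.46 against 14.3 and 22.2 CPM, 1.05 against replicate 1 alone), and Hpgds, prostaglandin D2 synthase (60.6 and 105 against 84.6 and 94.1 CPM, 0.55), whose level in GFP replicate 2 lay above both E47-ER libraries.

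Genes lower with E47-ER had smaller differences. Nupr1, a stress-induced chromatin regulator (ENSMUSG00000030717, chromosome 7, 126623249 to 126630861), had 196 and 365 CPM with GFP and 64 and 59 with E47-ER (-2.19, SE 0.27, adjusted p = 0.0102, and -1.68). GFP replicate 2 was well above replicate 1, and both lay well above the E47-ER libraries. Cd24a, a small surface glycoprotein of immature lymphocytes (ENSMUSG00000047139, chromosome 10, 43578284 to 43584265), had 123 and 156 against 48.9 and 41.6 CPM (-1.62, SE 0.16, adjusted p = 0.00422, and -1.45). Zbtb32, a BTB zinc finger repressor gene (chromosome 7, 30589681 to 30598909), had 48.7 and 49.8 against 17.5 and 21 CPM (-1.35, SE 0.15, adjusted p = 0.00581, and -1.34). Zbtb32 was nearly the same in both GFP libraries. No lower gene was called in all 8 fits that each left out 1 library. Cd24a and Zbtb32 were called in 6 of them and Nupr1 in 4. Slc7a11, Ffar2, Phlda1, Slpi, Uchl1, Srm, Csn2 and Ak4, given next, were called in only 2. The same holds for the higher genes Id3, Tgfb3, Ighm, Tox2, Sema6d, Hlf, Tgfbr2 and Itgae. It also holds for the higher genes Tcf3, Trdc, Tcrg-C1, Txk, Ccr2, Ccr9, P2ry14, Sema7a, Epcam, Nrarp, Ptprc and Bcl2l11. Further higher ones are Ctse, B3gnt7, St6gal1, Ugcg, Map3k8, E2f2, Hif1a and Egln3. Among other lower genes it holds for Lgmn, Eif4ebp1, Mettl1, Dkc1, Nop16, Fbl, Pgap1, Ncs1 and Ydjc. Still other called genes may share this limit.

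Slc7a11, the cystine transporter, had 13.4 and 9.85 against 4.47 and 3.29 CPM (-1.6, SE 0.26, adjusted p = 0.0271, and -1.81) and Ffar2, a receptor for short-chain fatty acids, 9.14 and 13.7 against 3.74 and 3.06 CPM (-1.73, SE 0.28, adjusted p = 0.0265, and -1.44). Phlda1, an immediate early response gene, had 105 and 213 against 44.8 and 47.9 CPM (-1.77, SE 0.31, adjusted p = 0.0329, and -1.18), and Slpi, a secreted protease inhibitor, 27.1 and 53 against 12 and 11.3 CPM (-1.76, SE 0.28, adjusted p = 0.0271, and -1.23). Uchl1, a ubiquitin hydrolase gene, had 42.6 and 87.3 against 20.2 and 20.03 CPM (-1.68, SE 0.32, adjusted p = 0.0467, and -1.09). In the last 3 genes GFP replicate 2 was far above replicate 1, and the difference was smaller against replicate 1 alone. By contrast Pgap1, Ncs1, Srm and Ak4 had like values in both GFP replicates. Srm, which makes the polyamine spermidine, had 80.8 and 79.9 against 44 and 38.5 CPM (-0.96, SE 0.15, adjusted p = 0.024, and -0.98), and Ak4, an adenylate kinase of mitochondria, 52.7 and 49.9 against 28.3 and 27.1 CPM (-0.89, SE 0.13, adjusted p = 0.0168, and -0.94). Csn2, a casein gene, was lower at 82.8 and 125 against 46.5 and 38.7 CPM (-1.28, SE 0.20, adjusted p = 0.024, and -0.97). Ydjc overlaps exons of Ccdc116 and Ube2l3, so its value may include their reads.

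**Figure D3:**
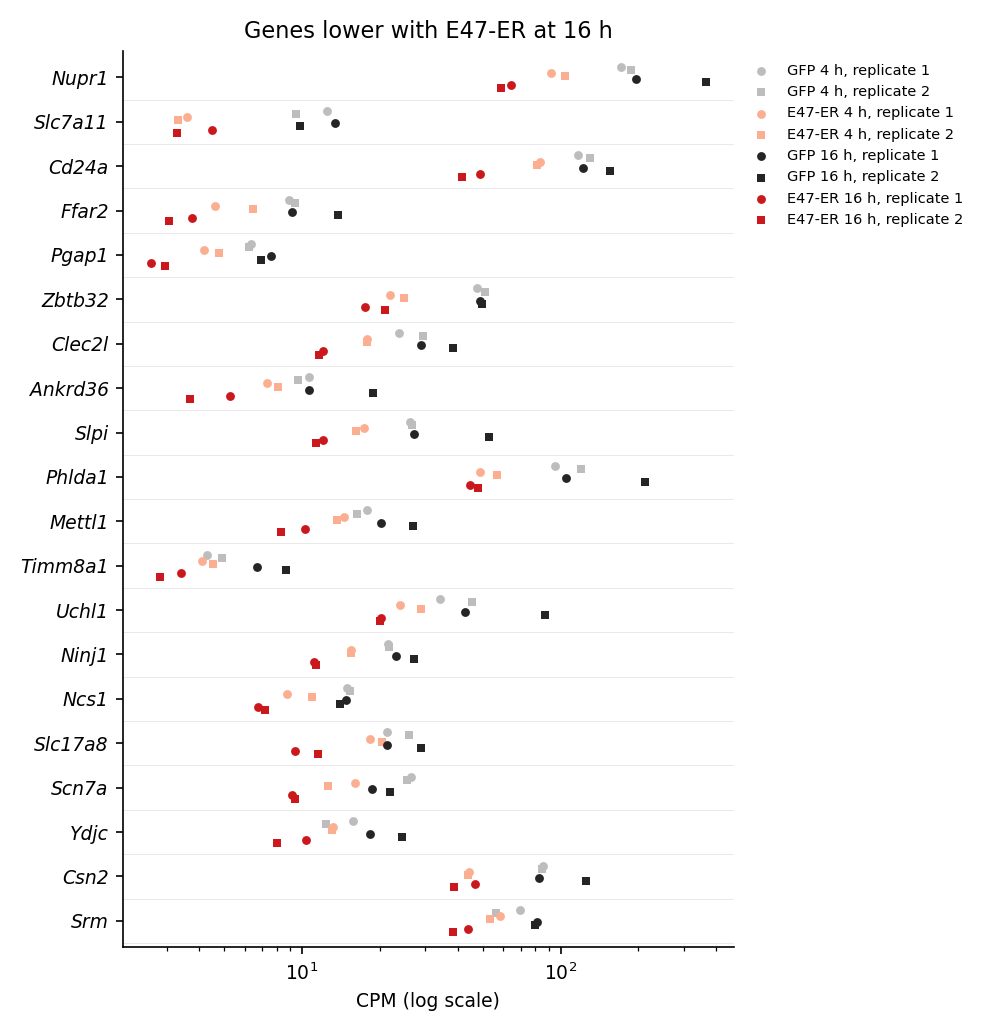
CPM of the 20 genes named among those lower with E47-ER at 16 h, on a log axis, with 1 point per library for all 8 libraries (circles replicate 1, squares replicate 2). In each gene both red points lie to the left of both black points, and the black square (GFP replicate 2) is far to the right of the black circle in genes such as Nupr1, Phlda1 and Uchl1.

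Several growth and stress lists had negative medians, with few members called with all libraries. Of 33 ribosome biogenesis genes, which build ribosomal subunits in the nucleolus, 4 were lower and 0 higher, and 29 and 0 against replicate 1 alone, where 4.62% of all genes were lower. Their median log2 fold change was -0.51 with all libraries and -0.59 against replicate 1 alone, and 1 and 0 of the 33 were positive. Both E47-ER libraries at 16 h lay below the 3 GFP libraries other than replicate 2 at 16 h in 32 of 33, against 20.5% of all genes (21.8% lay above them). The 4 called with all libraries were Mettl1, a tRNA methyltransferase gene (20.2 and 26.9 against 10.3 and 8.25 CPM, -1.34, SE 0.20, adjusted p = 0.0196, and -1.14), Dkc1, of the pseudouridine synthase complex, which overlaps exons of Mpp1 (79.4 and 95.7 against 52.8 and 40.1 CPM, -0.91, SE 0.17, adjusted p = 0.0407, and -0.78), the nucleolar gene Nop16 (-0.86, SE 0.15, adjusted p = 0.0299, and -0.80) and the rRNA methyltransferase gene Fbl, fibrillarin (63.7 and 63.5 against 39 and 34.8 CPM, -0.79, SE 0.14, adjusted p = 0.0387, and -0.80). Fbl had nearly equal values in the GFP replicates. The level in GFP cells varied as well: relative to the mean of the 8 libraries the median member stood at 0.26 (log2) in GFP replicate 1 at 16 h and 0.15 in replicate 2, at 0.16 and -0.004 in the GFP libraries at 4 h, and at -0.20 and -0.38 in the E47-ER libraries at 16 h. GFP replicate 1 at 16 h was the highest of the 7 libraries other than replicate 2 in 24 of 33 members, so the count against it alone rests on a library that was itself high for these genes.

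Genes of the ATF4 pathway, which adjusts amino acid supply under stress, had 3 of 45 members lower and 0 higher with all libraries. Over all genes 0.337% were lower. The median of the list was -0.36, and -0.42 against replicate 1 alone. The log2 fold change was positive in 5 of the 45, and in 4 against replicate 1 alone. Both E47-ER libraries at 16 h lay below the 3 GFP libraries other than replicate 2 at 16 h in 35 of 45. They lay above them in 2. Over all genes 20.5% lay below and 21.8% above. GFP replicate 1 at 16 h was the highest of the 7 libraries other than replicate 2 in 19 of the 45. The 3 lower ones were Nupr1, Slc7a11 and Eif4ebp1, an inhibitor of translation (80.1 and 121 against 43.6 and 41 CPM, -1.24, SE 0.19, adjusted p = 0.0231, and -0.93). Atf4 itself had 401 and 513 against 318 and 298 CPM and was called only against replicate 1 alone (-0.39), as was Asns, asparagine synthetase, at 78.6 and 72.3 against 52.4 and 41.7 CPM (-0.75). Vldlr was the 1 higher call there, at 4.9 and 2.8 against 8.88 and 8.83 CPM (0.84). Heat shock and chaperone genes had 0 of 18 called in either direction with all libraries (median -0.39, and -0.41 against replicate 1 alone). The log2 fold change was nonetheless positive in only 2 of the 18, and in 1 against replicate 1 alone. Both E47-ER libraries at 16 h lay below the 3 GFP libraries other than replicate 2 at 16 h in 13 of 18, and above them in 0. Hspd1, a mitochondrial chaperone gene, for example had 197 and 173 against 126 and 113 CPM (-0.73 against replicate 1 alone). GFP replicate 1 was the highest of the 7 libraries in 14 of those 18.

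Most glycolysis and hypoxia genes had negative values. The log2 fold change was positive in 7 of 34 with all libraries and in 6 against replicate 1 alone. Both E47-ER libraries at 16 h lay below the 3 GFP libraries other than replicate 2 at 16 h in 25 of 34. They lay above them in 2. Over all genes 20.5% lay below and 21.8% above. Of the 34 tested, 2 were called higher and 1 lower with all libraries (median -0.33, and -0.32 against replicate 1 alone). GFP replicate 1 at 16 h was the highest of the 7 libraries other than replicate 2 in 12 of the 34. The higher ones were the oxygen-responsive factor gene Hif1a, which overlaps exons of Gm15283, at 770.2 and 756 against 1205 and 1286 CPM (0.71, SE 0.13, adjusted p = 0.0405, and 0.69), and Egln3, which encodes an oxygen sensor that marks HIF proteins for loss, at 183 and 161 against 328 and 325 CPM (0.93, SE 0.13, adjusted p = 0.0141, and 0.83). The lower one was Ak4. The enzyme genes Ldha and Pkm passed only against replicate 1 alone. Ldha, lactate dehydrogenase, had 3646 and 4385 against 2686 and 2577 CPM (-0.61, adjusted p = 0.0906, and -0.48, adjusted p = 0.00145, against replicate 1 alone), and Pkm, pyruvate kinase, 3900.0 and 3856 against 2939.8 and 2940.2 CPM (-0.40, adjusted p = 0.146, and -0.41, adjusted p = 0.00487). The glucose transporter gene Slc2a3 had 154 and 125 against 83.2 and 96.3 CPM (-0.79 against replicate 1 alone). At 4 h the median log2 fold change of this list was -0.27 and that of the ribosome biogenesis list -0.14.

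**Figure D4:**
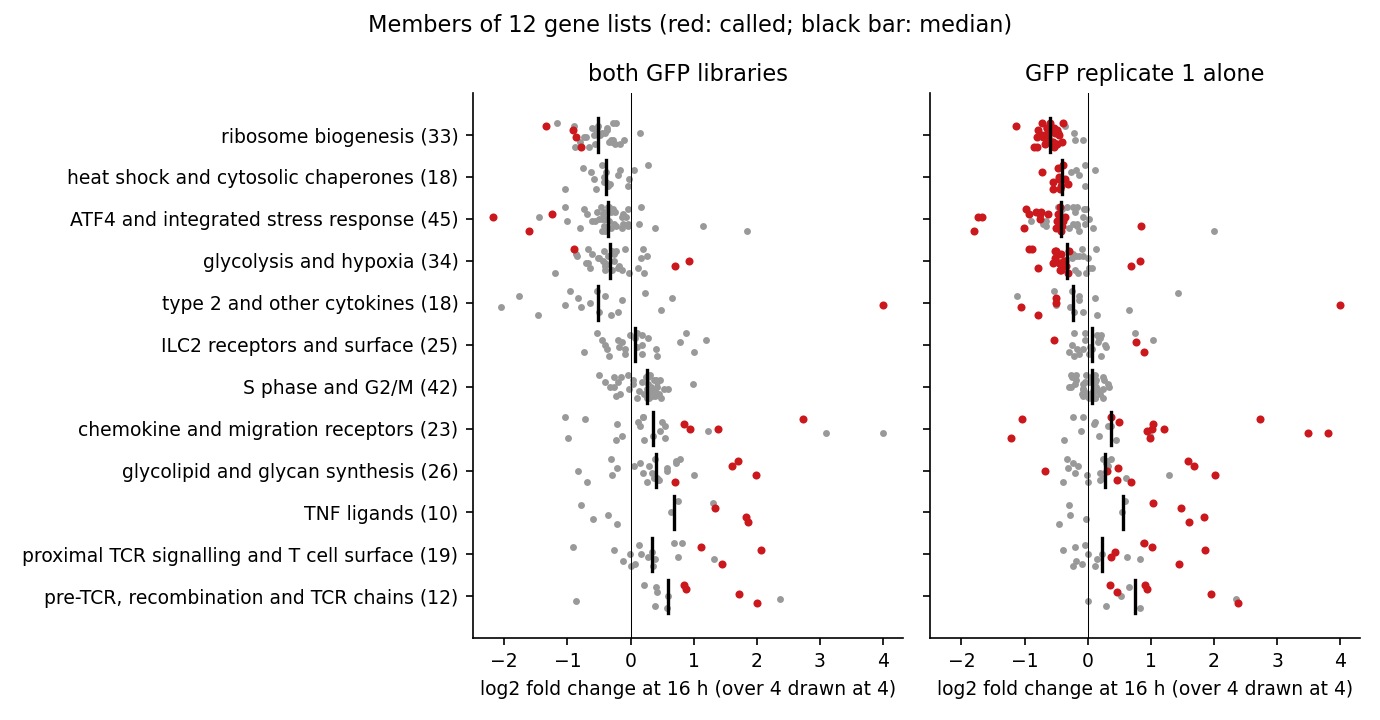
Log2 fold change of E47-ER against GFP at 16 h for the tested members of 12 gene lists, with both GFP libraries (left) and against GFP replicate 1 alone (right). Each point is a gene, red if called, the black bar is the list's median, the number of members stands in brackets, and values over 4 are drawn at 4. The medians of the ribosome biogenesis list are -0.51 and -0.59, and 4 and 29 of its 33 points are red.

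Of 25 ILC2 receptor and surface genes 0 were called in either direction with all libraries (edgeR), and 2 higher and 1 lower against replicate 1 alone (median 0.07 in both). With 1.25% of all genes higher and 0.337% lower, a list of this size says little by having no calls. Il1rl1 had 1682 and 2063 against 1667 and 1872 CPM (-0.08, SE 0.16) and Il7r, the IL-7 receptor, 736 and 688 against 644 and 698 CPM (-0.09, SE 0.13). Il2ra, the IL-2 receptor alpha chain, had 4194 and 3789 against 2918 and 2920.2 CPM (-0.45, adjusted p = 0.142, and -0.53). With a term for exon length it stood at -0.56 (adjusted p = 0.0488, edgeR). Its groups did not overlap, which held in the same direction for 26.6% of all genes tested. Il17rb, of the IL-25 receptor, had 7.66 and 6.39 against 13 and 15.6 CPM (1.01, adjusted p = 0.0598, and 0.90). With the length term Il17rb stood at 1.02 (adjusted p = 0.042). Of 23 ILC2 transcription factor genes 3 were higher and 0 lower (7 and 2 against replicate 1 alone), namely Tcf7, Rora and Hlf. Rora, which ILC2 need to develop, had 78.6 and 75.4 against 151 and 158 CPM (1.0, SE 0.13, adjusted p = 0.0139, and 0.97) and Hlf 253 and 216 against 438 and 450.2 CPM (0.92, SE 0.13, adjusted p = 0.0171, and 0.80). Gata3 had 951 and 1479.8 against 885 and 922 CPM (-0.43, adjusted p = 0.249), and with GFP replicate 2 left out its difference was -0.08. Irf4, an effector factor, was called lower only against replicate 1 alone, at 145 and 85.8 against 69.2 and 60.5 CPM (-1.17).

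The type 2 cytokine genes Il5 and Il13 did not pass with all libraries. Il5 had 5068 and 7767 CPM with GFP and 3637 and 3576 with E47-ER (-0.83, adjusted p = 0.114, and -0.50, adjusted p = 0.00674, against replicate 1 alone), and Il13 8064 and 9851 against 5615 and 5829.7 CPM (-0.65, adjusted p = 0.0898, and -0.50, adjusted p = 0.00115). The groups did not overlap in either gene, which held in the same direction for 26.6% of all genes tested. Genes of this list are short, with a median of 1302.5 bases, and with a term for exon length Il5 stood at -0.50 (adjusted p = 0.0974), Il13 at -0.28 (adjusted p = 0.237) and the median of the 18 genes at -0.23, against -0.52 without it. Areg, a growth factor of tissue repair, had 758 and 1278 against 536 and 513 CPM and was called in neither fit. The genes of this list called lower against replicate 1 alone were Il5, Il13, Il6 and Calca. Calca, of the neuropeptide CGRP, had 49.8 and 151 against 22.8 and 25.3 CPM (-1.06 against replicate 1 alone).

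Of 42 S phase and G2/M genes 0 were called in either fit (median 0.27 and 0.06), and 0 of 39 interferon response genes, 0 of 18 histone genes and 0 of 12 mitochondrially encoded genes were called with all libraries (edgeR). These counts are near the shares over all genes, 1.25% higher and 0.337% lower, and are no result about the lists. Over all genes, 1415 were higher and 1858 lower at an unadjusted p under 0.05. Of 34 genes of G1 cyclins, inhibitors and Myc 2 were called higher with all libraries, Cdk20 and E2f2. E2f2, a factor of S phase entry, had 74.5 and 53.8 against 152 and 143 CPM (1.2, SE 0.18, adjusted p = 0.0197, and 0.98). Cdkn1a, an inhibitor of the cell cycle, had 366 and 431 against 372 and 374 CPM (-0.09, SE 0.16), and Ccnd2, the D-type cyclin of lymphocytes, 552 and 637 against 518 and 539 CPM (-0.17, SE 0.14). Myc, which drives ribosome biogenesis, had 131 and 88.4 against 93.8 and 84.3 CPM (-0.31, adjusted p = 0.358, and -0.57, adjusted p = 0.00308, against replicate 1 alone), with GFP replicate 2 within the E47-ER range.

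The direction at 16 h was mostly that at 4 h, in libraries that the 16 h comparison does not share. Of the 171 higher genes 170 had a positive log2 fold change at 4 h, the exception being Epsti1, and all 46 lower genes had a negative one. Over all genes tested 49.1% were positive at 4 h. The difference was larger at 16 h in 158 of the higher and 45 of the lower genes, and the median went from 0.86 to 1.40 and from -0.47 to -1.24. These genes were chosen by their values at 16 h, and that choice alone favours a larger difference at 16 h. Ctsl had 262 and 261 CPM with E47-ER at 4 h and Tcf7 6.85 and 7.41 CPM, both between the GFP and the later levels. St8sia1 was among the 13 higher genes whose difference was no larger at 16 h, with 12.4 and 12.1 CPM at 4 h. The change of effect between the times passed for 0 genes with all libraries (smallest adjusted p = 0.699 by edgeR, with 299 higher and 372 lower at an unadjusted p under 0.05, and 0 by DESeq2 or limma voom). Without replicate 2 of GFP at 16 h it passed for 6: Ctsl (1.8, adjusted p = 0.00121) and Lgals9 (0.75, adjusted p = 0.0185) with a larger effect at 16 h, Ptprs (1.63, adjusted p = 0.000185), a phosphatase gene that was not called at 16 h with all libraries, Nupr1 (-0.80, adjusted p = 0.0185) and Cd24a (-0.87, adjusted p = 0.0185) with a stronger loss, and the pseudogene Rpl17-ps4.

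Transcript length moved with the result through GFP replicate 2. In genes with the shortest annotated exons, up to 2373 bases in all (the lowest 25%), the median log2 fold change was -0.35 with both GFP libraries and -0.08 against replicate 1 alone, and in those with the longest, from 6385 bases (the highest 25%), 0.18 and 0.06. That library deviated from the mean of the 8 by a median of 0.50 in the former and -0.30 in the latter. The median exon length was 2547 bases among the lower genes, 4252 among the higher and 4047 among all tested. With a term for exon length in each library, 162 of the 171 higher and 38 of the 46 lower genes were called, among 223 and 89 calls in all. Of the list medians, that of the cytokines is given above, and ribosome biogenesis stood at -0.47, ATF4 at -0.34 and glycolysis at -0.34. Of the genes described above, Srm (-0.69, adjusted p = 0.0954), Nop16 (-0.61, adjusted p = 0.0756), Ccr2 (0.68, adjusted p = 0.0899), P2ry14 (0.71, adjusted p = 0.0577), Ptprc (0.38, adjusted p = 0.161), Bcl2l11 (0.72, adjusted p = 0.0882) and Txk (0.93, adjusted p = 0.0512) no longer passed with that term.

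**Figure D5:**
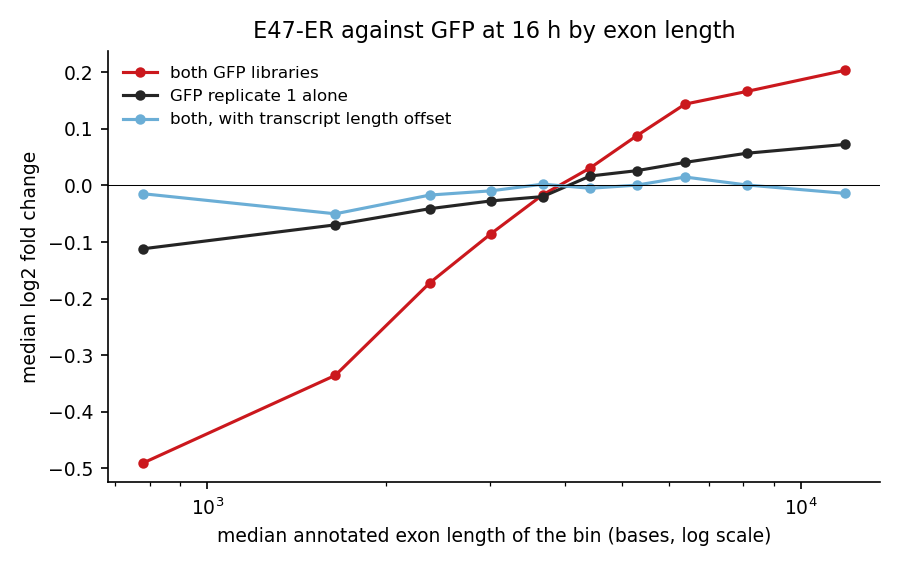
Median log2 fold change of E47-ER against GFP at 16 h in 10 bins of genes by annotated exon length (x axis, log scale, in bases). With both GFP libraries the median runs from -0.49 in the shortest to 0.20 in the longest bin, against GFP replicate 1 alone from -0.11 to 0.07, and with a length term in each library it stays between -0.05 and 0.01.

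Some higher genes lie next to each other. Among genes ordered along the chromosomes and tested, 15 pairs of direct neighbours were both called higher, which took in 28 of the 171 genes, and 0 pairs were both called lower. How many such pairs like numbers of other genes would give was not tested. Of the pairs, Wdr78 and Mier1 overlap in exons, and Trbj1-4 and Trbj1-5 are joining segments. Ltb and Tnf lie 3060 bases apart on chromosome 17, Id3 and E2f2 26638 bases apart on chromosome 4 and Ctsl and Cdk20 61423 bases apart on chromosome 13. Tapbpl, an antigen loading gene at 18.8 and 17.8 against 47.7 and 49.5 CPM (1.4, SE 0.19, adjusted p = 0.0141, and 1.36), lies 761 bases from Cd27 on chromosome 6. Both lie within the span of Vamp1, which was called too (1.21, SE 0.16, adjusted p = 0.0132, and 1.14). Nrarp follows Pnpla7 (1.12, SE 0.17, adjusted p = 0.0231, and 0.94) and Nsmf (1.27, SE 0.18, adjusted p = 0.0178, and 1.11) on chromosome 2. The gap between Nsmf and Nrarp was 117876 bases. Reads that run on from one gene into the next, or that were counted without strand, could enter both of a close pair, and the strand setting is not given in the sources used here.

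Promoter windows were searched for E box letters. The 250 bases before the first RefSeq start (GRCm38.p6) were read for CAGCTG and for CAGGTG, with its reverse complement CACCTG, on both strands. At least 1 of them stood in 32.3% of 124 higher genes and in 32.4% of 34 lower genes with a window, against 24.3% of 9778 tested genes. CAGCTG stood in 18.5%, 17.6% and 11.1%, and CAGGTG in 17.7%, 17.6% and 14.9%. Among the genes named for their large differences, at least 1 stood in 21.4% of 14 higher and 50.0% of 16 lower genes with a window. A match is not a bound site. Windows of 120 bases are shown for 3 named genes whose windows hold matches, the DNA repair glycosylase gene Neil1, which was higher (12.1 and 12.8 against 53 and 64.5 CPM, 2.24, SE 0.24, adjusted p = 0.00596, and 2.27), and Zbtb32 and Clec2l, a lectin-like gene (28.8 and 38.5 against 12.1 and 11.7 CPM, -1.49, SE 0.19, adjusted p = 0.0115, and -1.29), which were lower. They are in GRCm38.p6, 5′ to 3′ on the gene's strand, minus for Neil1 at chr9:57148402-57148521 and for Zbtb32 at chr7:30598956-30599075, and plus for Clec2l at chr6:38662838-38662957, and capitals mark the matches.
Neil1: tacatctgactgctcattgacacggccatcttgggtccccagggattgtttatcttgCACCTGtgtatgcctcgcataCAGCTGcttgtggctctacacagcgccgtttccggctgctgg
Zbtb32: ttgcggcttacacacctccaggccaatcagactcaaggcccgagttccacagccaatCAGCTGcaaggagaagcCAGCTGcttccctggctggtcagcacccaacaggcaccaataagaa
Clec2l: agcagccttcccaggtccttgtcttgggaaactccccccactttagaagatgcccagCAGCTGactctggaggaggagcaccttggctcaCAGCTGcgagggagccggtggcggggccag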

How the data were processed

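The deposited values were whole-number counts of reads per gene for 8 libraries, with GENCODE M21 style gene identifiers. Per the submitters' processing notes the build was mm10 and DESeq2 was used. The aligner, the counting tool, its strand setting and the software versions have no mention in the labels, and so were not given in the sources used here. From the deposited counts, 13644 of 50686 genes that passed edgeR's filter (minimum count 10) were fitted with edgeR 4.0.16 (R 4.3.3, TMM scaling, robust quasi-likelihood, 4 group means) with Benjamini-Hochberg adjustment at 0.05. Standard errors are the log2 fold change over the root of F, and CPM use TMM library sizes. Library totals of 8813782 to 18677675 counts set the precision. The fit was run on simulated counts drawn from each gene's mean and spread and the library sizes, with known changes added. These counts lacked the length trend of GFP replicate 2 at 16 h, so they cannot show how the fit handles it. Alternatives were DESeq2, limma voom, other scalings and filters, a length term, a replicate block and leaving out each library. Genes named were Tcf3, Esr1 and Id1, up to 20 per direction by the smaller fold change of both fits among abundant, non-overlapping calls, up to 4 called members per list, and a fixed list. Others, named for contrast or as members of a list whose count is given, were chosen after their values were seen. The members and lists were chosen with earlier results of these data known. Promoters are from RefSeq, GRCm38.p6, and matched 158 of the 216 genes called in both fits.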

Additional observations from a re-analysis of the deposited data

How the results depend on the processing

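The calls depended on which libraries gave the spread. Leaving out each library in turn gave 14 to 3352 higher genes, 0 to 3476 lower genes and 0 to 5007 genes whose effect differed between the times. Without GFP replicate 1 at 16 h there were 3352 higher and 3476 lower genes (5007 for the difference), and without GFP replicate 2 617 and 630 (6 for the difference). Without E47-ER replicate 1 at 16 h there were 26 and 0, and without replicate 2 14 and 0. At 4 h, leaving out GFP replicate 1 or 2 gave 58 or 59 higher and 3 lower genes, and leaving out a replicate of E47-ER gave 50 and 3 in each case. The cause was not tested. DESeq2 called 437 higher and 616 lower genes, limma voom with quality weights 40 and 15, and a fit of only the 4 libraries at 16 h 6 and 0. Without a filter on low counts there were 927, 889 and 53 for the difference between times. Scaling to library totals left 160 and 28, and the length term gave 223 and 89. Scaling by RLE (169 and 46) and a minimum count of 30 (170 and 45) changed little. With the replicate number as a block within each time 50 genes were higher and 4 lower. The deviations of libraries with the same number had correlations of -0.0901 to 0.202 over 6 pairs of groups (-0.0901 at 16 h and 0.0237 at 4 h), not all over 0.1, and the numbers were not taken as a pairing. No named gene called with all libraries changed sign under these settings. Myc (-0.57 without GFP replicate 2 at 16 h and 0.0094 without replicate 1) and Csf2 (0.15 and -0.66), each called in 1 of those 2 fits, did. Genes with few counts in GFP cells, such as Gal with 6 and 1, have loosely known folds at this depth.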

Other observations

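Some called genes belong to none of the groups described. Wnt10b, a secreted WNT ligand, had 0.269 and 0.266 CPM with GFP and 12.3 and 10.4 CPM with E47-ER at 16 h (on the log2 scale 5.36, SE 0.35, adjusted p = 0.000713, and 5.35 against GFP replicate 1 alone, edgeR), and Ccn4, a secreted protein of the WNT response, 0.202 and 0.266 against 7.08 and 6.98 CPM (4.92, SE 0.43, adjusted p = 0.00286, and 5.06). A further WNT gene, Wnt9a, had 0.403 and 0.399 against 2.47 and 3.58 CPM (2.89, SE 0.46, adjusted p = 0.0247, and 2.88). Acod1, which makes the metabolite itaconate and is best known from macrophages, had 0.202 and 0.133 against 2.67 and 3.23 CPM (4.0, SE 0.61, adjusted p = 0.0231, and 3.82). Irf8, a factor of myeloid and B cells, had 16.2 and 11.9 against 57.8 and 67.7 CPM (2.14, SE 0.21, adjusted p = 0.00381, and 1.95). Apart from Irf8 these genes were chosen after their values were seen.

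The joining segments Trbj1-4 and Trbj1-5 of the T cell receptor beta locus were called, at 0 and 0 against 1.27 and 1.15 CPM and 0.0672 and 0.133 against 1.74 and 1.44 CPM. They were chosen after their values were seen. Rag1 and Rag2 had no counts. Among the lower genes was Pth, parathyroid hormone, also chosen after its values were seen, at 6.31 and 9.32 against 2.0 and 1.62 CPM (-2.09, SE 0.29, adjusted p = 0.0168, and -1.81).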
